A study of Mus musculus with 22 samples.

Results

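The genes described here encode the excitation-contraction coupling complex of skeletal muscle: Ryr1, Cacna1s, Cacna2d1, Cacnb1, Cacng1, Stac3, Jph1, Jph2, Trdn and Asph. They were chosen by symbol, through the gene identifiers of the count table, and make up 10 of its 55487 genes. Poly-A RNA of the soleus, a mixed slow and fast muscle of the lower leg, was sequenced from male mice in 22 libraries. Genotypes are labelled WT and TRa1 KO, a knockout of thyroid hormone receptor alpha 1, and the labels do not say which tissues carry the deletion, the allele or the age of the mice. Animals received T3, the active thyroid hormone, or vehicle, with no dose or duration given, which made groups of 5 (WT vehicle), 6 (WT T3), 4 (KO vehicle) and 7 (KO T3) libraries. The series title concerns muscle thyroid hormone receptor in thermogenesis, and the comparisons ask how T3 and the receptor bear on each transcript. Libraries held 14542548 to 75766782 counts, and the 10 genes had between 608 and 160648 counts in a library, so that counting error was small beside the spread between libraries. Nothing in the labels says that every library came from its own mouse. P-values therefore cover only the variation among these libraries, which may be technical.

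In skeletal muscle an action potential runs down the transverse tubules and moves the voltage sensor, a calcium channel of the tubule membrane with a pore-forming alpha-1S subunit (Cacna1s) and the accessory subunits Cacna2d1, Cacnb1 and Cacng1. The sensor pulls open the calcium release channel RyR1 in the facing membrane of the sarcoplasmic reticulum by direct contact, for which the adaptor STAC3 is needed. Junctophilins hold the membranes together, and triadin and junctin tie the release channel to the calcium store protein calsequestrin in the lumen. Fast fibres carry more of this machinery per fibre volume than slow fibres, and thyroid hormone is known to shift muscle toward fast fibre types.

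Promoter sequences are shown for Ryr1, Cacna1s, Cacna2d1 and Jph2. RefSeq start sites (GRCm38.p6) gave 7 windows of 250 bases before to 50 after the start for 5 of the 10 genes, and none for Cacng1, Jph1, Trdn, Stac3 and Asph. Bases before both the RefSeq start and the gene start of the count table are printed 5′ to 3′ on the gene's strand. Capitals mark motif matches. Cacnb1 also had a window, but too few such bases to be printed.
Ryr1, chr7:29125152-29125401, minus strand: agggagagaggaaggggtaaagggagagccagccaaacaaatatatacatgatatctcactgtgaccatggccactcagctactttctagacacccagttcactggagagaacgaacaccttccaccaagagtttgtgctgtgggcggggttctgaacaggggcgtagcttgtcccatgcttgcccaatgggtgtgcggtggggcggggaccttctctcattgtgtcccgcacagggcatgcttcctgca
Cacna1s, chr1:136052561-136052749, plus strand: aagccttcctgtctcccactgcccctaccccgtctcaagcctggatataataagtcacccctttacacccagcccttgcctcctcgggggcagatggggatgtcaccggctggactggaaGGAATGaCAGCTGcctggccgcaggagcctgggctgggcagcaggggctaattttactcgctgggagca
Cacna2d1, chr5:15934441-15934690, plus strand: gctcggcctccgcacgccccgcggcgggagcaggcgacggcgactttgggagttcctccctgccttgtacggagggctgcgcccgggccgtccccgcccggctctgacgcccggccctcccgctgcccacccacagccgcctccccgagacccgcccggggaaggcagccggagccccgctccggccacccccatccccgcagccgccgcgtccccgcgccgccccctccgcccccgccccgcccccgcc
Jph2, chr2:163397994-163398223, minus strand: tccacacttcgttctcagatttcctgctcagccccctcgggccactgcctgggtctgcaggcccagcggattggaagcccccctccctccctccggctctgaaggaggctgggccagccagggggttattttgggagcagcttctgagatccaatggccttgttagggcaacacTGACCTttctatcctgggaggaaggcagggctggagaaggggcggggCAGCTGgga
Motifs searched on both strands were the half-site AGGTCA, the E-box CAGCTG, the muscle CAT element CATTCC, the direct repeat of half-sites with a 4-base spacer, and MEF2. The Cacna1s sequence held CATTCC on the other strand, 1 base away from CAGCTG, and the motifs did not overlap. In the Jph2 sequence AGGTCA lay on the other strand and CAGCTG nearer the start. Ryr1 and Cacna2d1 had no match in the printed bases, and 82.4% of the Cacna2d1 bases were G or C. Of 32851 windows of this length over all genes, 16.3% held AGGTCA, 16.3% held CAGCTG and 14.7% held CATTCC. The direct repeat was found in 0.0152% of windows and MEF2 in 3.19%, and neither was found in a window of these genes. A match is a string of letters and not a binding site.

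All 10 genes passed the filter on low counts and were well expressed in each library. Levels between genes were compared as CPM, the counts scaled to library size after TMM, per kilobase of gene length (CPM per kb). In WT vehicle muscle the triadin gene Trdn, at 129 ± 11.1 CPM per kb (SD, n = 5), Cacna1s, at 129 ± 11.8, and Ryr1, at 127 ± 19.4, were highest and overlapped. Stac3 and Jph2 came next at 88.7 ± 3.60 and 88.1 ± 21.1 CPM per kb, and each Stac3 library was below each Ryr1 library. Cacng1 (59.7 ± 15.5) and Jph1 (43.0 ± 7.43) overlapped, as did Cacnb1 (26.2 ± 5.01) and Cacna2d1 (25.996 ± 2.46). Asph was lowest per kb in all 4 groups, at 8.86 ± 0.705 CPM per kb in WT vehicle. This rank depends on its gene length of 16102 bases. In CPM the lowest WT vehicle value of Asph, 128, was above the highest of Cacng1, 103. In KO vehicle muscle Trdn stood alone at 134 ± 9.98 CPM per kb (SD, n = 4), above Stac3 at 94.9 ± 8.00 with no overlap, while Ryr1 and Cacna1s averaged 88.2 ± 10.1 and 84.9 ± 17.8. The pore-forming and release channel genes thus ranked with Trdn in WT vehicle libraries and with Stac3 and Jph2 in KO vehicle libraries. These levels were not corrected for a trend of counts with gene length and GC content, described below. That trend placed Ryr1 at 0.07 to 0.33 on the log2 scale in WT vehicle libraries and at -0.04 to 0.10 in KO vehicle libraries. Ranks on trend-corrected levels per kb were not examined.

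**Figure D1:**
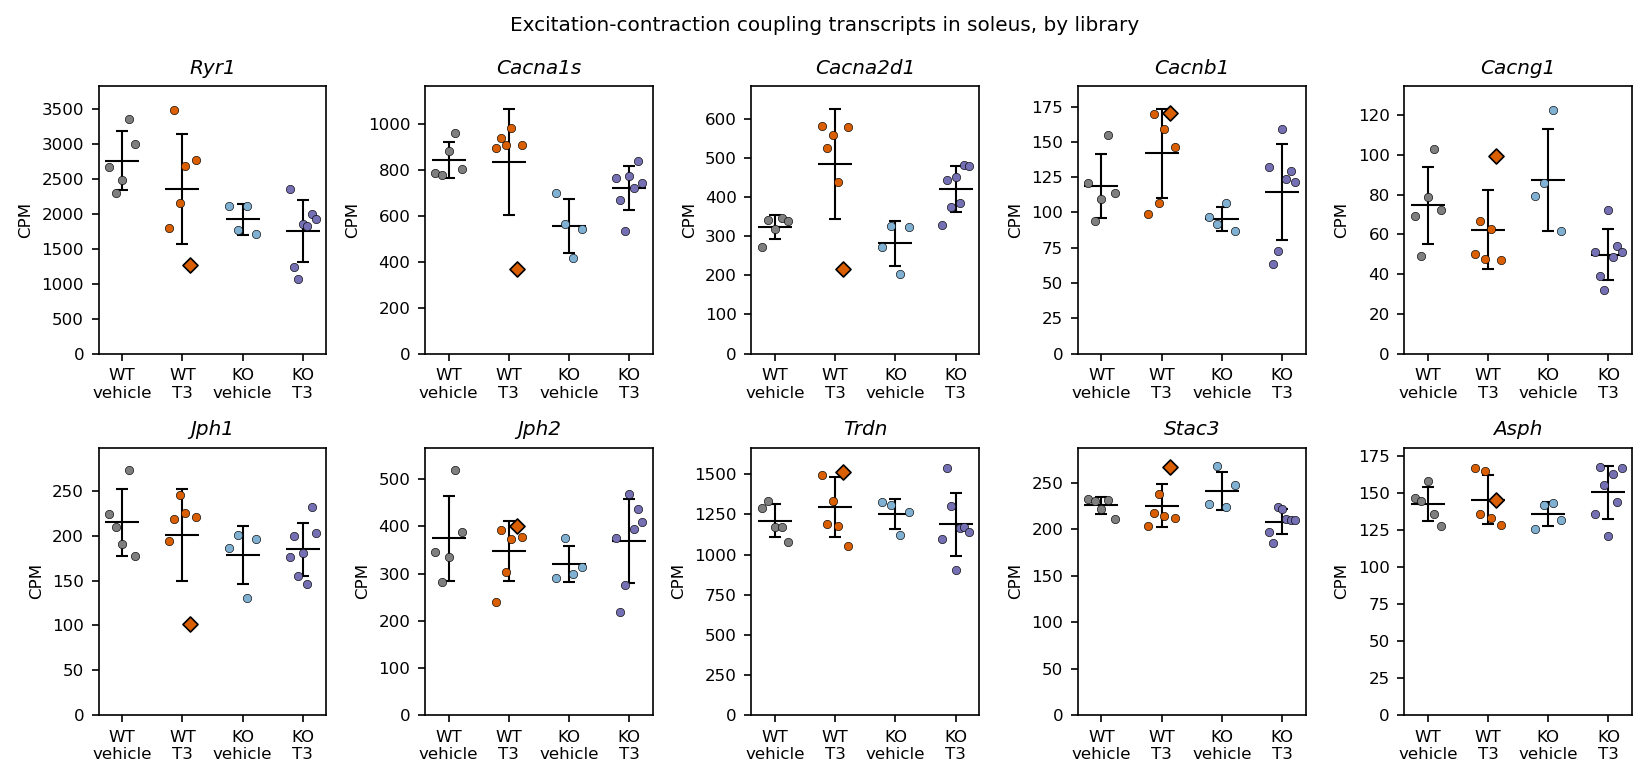
Scaled counts (CPM) of each of the 10 genes in the 22 libraries. Points are libraries, horizontal lines the group means and bars the SD; WT T3 replicate 5 is drawn as a diamond. Ryr1 and Cacna1s lie lower in the 4 KO vehicle libraries than in the 5 WT vehicle libraries, and Cacna2d1 lies higher in the 7 KO T3 than in the 4 KO vehicle libraries.

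Several libraries touched the results below. In earlier work on this series 5 T3 libraries lay apart from the rest: replicates 1, 3 and 5 of the WT T3 group and replicates 2 and 3 of the KO T3 group. Counts in some libraries, among these 5 and outside them, followed gene length and GC content: the trend placed Ryr1, the longest of the 10 at 21838 bases, at -0.74 on the log2 scale in WT T3 replicate 5 and at 0.41 in WT T3 replicate 2, which is not one of the 5. The genes are therefore described as fitted on all libraries, with an offset for length and GC content in each library, and without those 5 libraries. Thra, the gene of the deleted receptor, stood at 77.7 ± 8.49 CPM in WT vehicle (SD, n = 5), 42.7 ± 13.5 in WT T3 (n = 6), 47.6 ± 4.42 in KO vehicle (n = 4) and 32.6 ± 7.72 in KO T3 (n = 7). Under vehicle no KO library reached a WT library, while under T3 the genotypes overlapped. The KO differences were -0.71 and -0.39 (log2, adjusted p = 0.0979 and 0.271 by edgeR). Of 33 alternatives, 6 called the first and 2 the second. Under vehicle Thra was called with the offset (-0.60, adjusted p = 0.0166 by edgeR) and without the 5 libraries (-0.68, adjusted p = 0.00032 by edgeR). Under T3 it was called without the 5 (-0.49, adjusted p = 0.0106 by edgeR). With T3 in WT Thra was called lower, at -0.86 ± 0.20 (adjusted p = 0.0160 by edgeR), and in 32 of 33 alternatives. The gene also gives the TRa2 transcript, and counts per gene cannot separate the isoforms.

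Of the complex's 10 genes, edgeR's quasi-likelihood test called 0 when WT mice received T3, 1 when KO mice did (Cacng1, lower), 0 between genotypes under vehicle and 0 between genotypes under T3, at a Benjamini-Hochberg adjusted p below 0.05. Over all 15082 genes tested the same rule called 3.31%, 2.72%, 3.08% and 5.57%. At an unadjusted p under 0.05 the same test gave 1 (Cacna2d1), 3 (Cacna2d1, Cacng1, Stac3), 2 (Ryr1, Cacna1s) and 1 (Ryr1). DESeq2 called 0, 1, 0 and 0 of the 10, and 841, 664, 728 and 1132 of the 15082 genes. Limma voom with quality weights called 1, 4, 2 and 0 of the 10, and 767, 1472, 1971 and 1478 of the 15082 genes. The median log2 fold change of the 10 genes was -0.01, 0.10, -0.21 and -0.16 in the same order, beside 0.01, 0.02, -0.02 and -0.00 over all genes tested.

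With the offset for length and GC content the counts in that order were 2, 3, 0 and 2, where 5.08%, 4.98%, 4.75% and 8.49% of all genes were called. Without the 5 libraries they were 1, 4, 2 and 1, where 2.94%, 4.5%, 6.81% and 4.33% of the genes tested were called. In these 3 fits the called genes were Cacna2d1, Cacnb1, Cacng1 and Cacna1s for T3 and Ryr1, Cacna1s and Cacnb1 for genotype. Jph1, Jph2, Trdn and Asph were called under none of the settings tried. The T3 response differed between genotypes for 0 of the 10 genes by edgeR's quasi-likelihood test, with 0 at an unadjusted p under 0.05, where 0.00663% of all genes were called. DESeq2 and limma voom also called 0 of the 10, where they called 3 and 2 of all genes. Each had 1 of the 10 (Stac3) at an unadjusted p under 0.05.

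**Figure D2:**
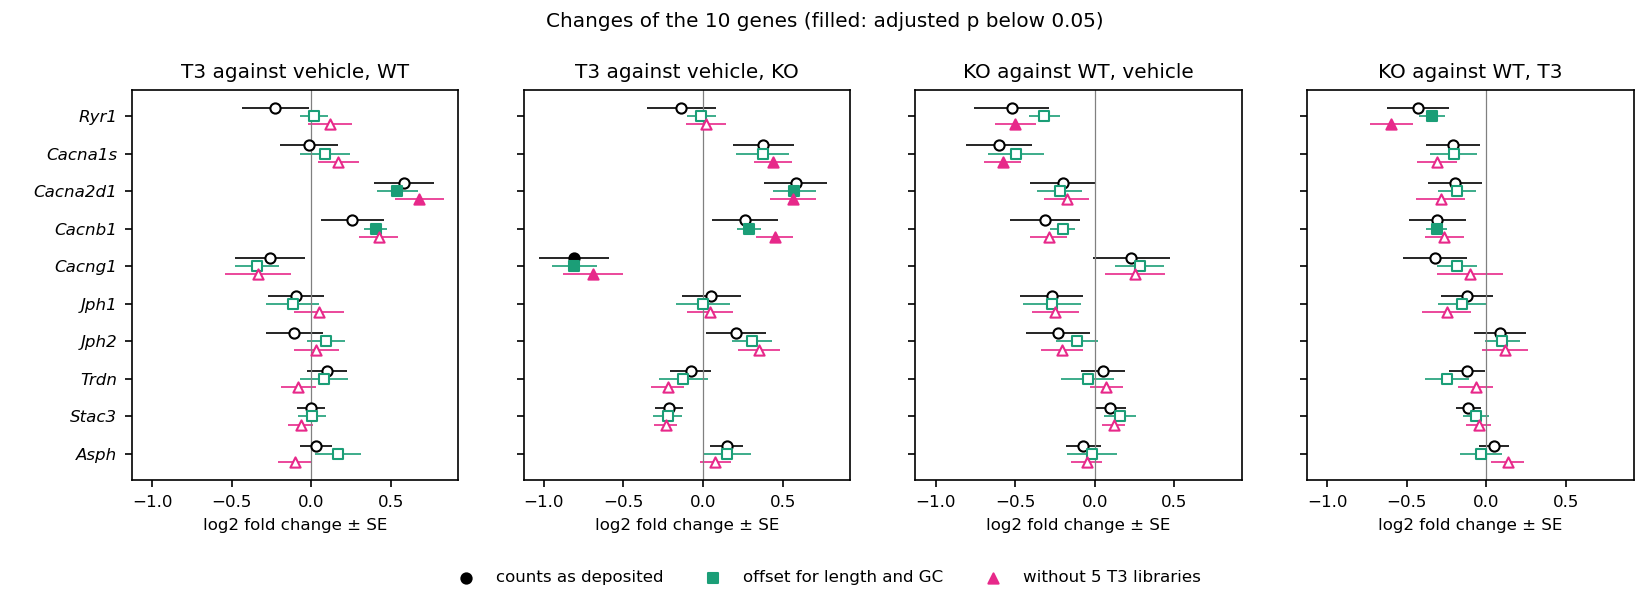
Log2 fold changes of the 10 genes in the 4 comparisons, with bars of 1 standard error (SE), from the fit on all libraries (circles), with an offset for length and GC content (squares) and without 5 T3 libraries (triangles). Filled symbols passed an adjusted p below 0.05; Cacng1 for T3 in KO is the only filled circle, at -0.81.

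Ryr1, the calcium release channel, was read at 2666, 2306, 2479, 3362 and 3006 CPM in WT vehicle and at 2119, 1766, 2112 and 1705 CPM in KO vehicle, so that every KO vehicle library lay below every WT vehicle library. Such a separation in either direction was found for 9.1% of all genes in that comparison. In WT T3 the lowest, median and highest values were 1272, 2419 and 3495 CPM and in KO T3 1072, 1860 and 2355 CPM, with overlap; 2.51% of all genes were separated by genotype under T3, and 0 of the 10. The KO difference under vehicle was -0.52 ± 0.24 (log2, SE, adjusted p = 0.304 by edgeR), and under T3 it was -0.43 ± 0.19 (adjusted p = 0.239 by edgeR), neither called. With the offset the KO differences were -0.32 ± 0.10 (adjusted p = 0.0640) and -0.34 ± 0.08 (adjusted p = 0.00763), the latter called by edgeR. After removal of the length and GC trend, levels ranged from 2094 to 2683 CPM in WT vehicle and 1712 to 2004 CPM in KO vehicle, and from 2119 to 2636 CPM in WT T3 and 1648 to 2035 CPM in KO T3, so that the genotypes did not overlap under either treatment. On trend-corrected levels 9.65% of all genes were separated in this way under vehicle and 3.51% under T3, and of the 10 genes 2 under vehicle (Ryr1, Cacna1s) and 2 under T3 (Ryr1, Cacnb1). Without the 5 libraries Ryr1 was called lower in KO under both treatments by edgeR. The difference was -0.50 ± 0.13 under vehicle (adjusted p = 0.0231 by edgeR) and -0.60 ± 0.14 under T3 (adjusted p = 0.0167 by edgeR). All libraries of the vehicle groups stayed in that fit, and the SE under vehicle went from 0.24 to 0.13. Leaving out WT T3 replicate 5 alone also gave a call under T3, at -0.57 (adjusted p = 0.0429 by edgeR), and fitting the vehicle groups alone gave a call under vehicle, at -0.51 (adjusted p = 0.0450 by edgeR). T3 gave -0.23 ± 0.21 in WT and -0.14 ± 0.22 in KO (adjusted p = 0.630 and 0.884 by edgeR), and with the offset 0.01 ± 0.09 and -0.01 ± 0.09. In bulk RNA, fewer cells of a type and less RNA per cell cannot be told apart.

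Cacna1s, the voltage-sensing pore subunit, stood at 787, 781, 885, 960 and 804 CPM in WT vehicle and at 699, 567, 415 and 542 CPM in KO vehicle, again with no overlap. The lowest value of the KO vehicle group came from replicate 3, which also had 982 CPM of erythroid marker transcripts in sum, against 33.4 to 96.2 in the other 3; their part in the result was not tested. WT T3 libraries ranged from 367 over a median of 910 to 985 CPM, and KO T3 libraries from 536 over 742 to 842 CPM. In WT T3 a single library, replicate 5, held the low value, and the other 5 lay between 897 and 985 CPM. KO against WT under vehicle was -0.60 ± 0.21 (adjusted p = 0.130 by edgeR), and without KO vehicle replicate 3 it was -0.46. Without the 5 T3 libraries the difference was -0.58 ± 0.12 and was called (adjusted p = 0.00599 by edgeR), and without WT T3 replicate 5 alone it was -0.58 (adjusted p = 0.0101 by edgeR). Neither setting removes a library of the compared groups. Fitting the vehicle groups alone also gave a call, at -0.59 (adjusted p = 0.0316 by edgeR). Under T3 the KO difference was -0.21 ± 0.17 (adjusted p = 0.583 by edgeR), and it was called without WT T3 replicate 5, at -0.38 (adjusted p = 0.0381 by edgeR). T3 gave 0.38 ± 0.19 in KO (adjusted p = 0.402 by edgeR), called at 0.44 ± 0.12 without the 5 libraries (adjusted p = 0.0383 by edgeR), and -0.01 ± 0.18 in WT (adjusted p = 0.982 by edgeR). With the offset Cacna1s was called in no comparison: edgeR gave -0.50 ± 0.18 by genotype under vehicle (adjusted p = 0.121) and -0.21 ± 0.15 under T3 (0.453), and T3 changes of 0.09 ± 0.16 in WT (0.817) and 0.38 ± 0.17 in KO (0.234).

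Cacna2d1, the extracellular alpha-2/delta-1 subunit, had the highest log2 fold change with T3 of the 10 genes in both genotypes. It was read at 271, 340, 318, 345 and 339 CPM in WT vehicle and at 217, 542 and 583 CPM (lowest, median, highest) in WT T3, where all libraries but replicate 5 lay above all vehicle libraries. In KO it was read at 273, 325, 203 and 324 CPM under vehicle and at 329, 444 and 482 CPM under T3, with no overlap. Of all genes, 4.66% were separated in this way by T3 in KO and 3.8% by T3 in WT. The log2 fold change with T3 was 0.58 ± 0.19 in WT and 0.58 ± 0.20 in KO, with adjusted p = 0.0889 and 0.128 by edgeR, so neither was called. Called values came with the offset, at 0.54 ± 0.13 in WT and 0.57 ± 0.13 in KO (adjusted p = 0.0148 and 0.0131 by edgeR), and without the 5 libraries, at 0.68 ± 0.15 and 0.57 ± 0.14 (adjusted p = 0.0202 and 0.0307 by edgeR). Without WT T3 replicate 5 alone the values were 0.74 and 0.55 (adjusted p = 0.00173 and 0.0163 by edgeR). The T3 responses of the genotypes differed by -0.00 ± 0.27 (adjusted p = 1.00 by edgeR). The KO differences were -0.20 ± 0.21 under vehicle and -0.20 ± 0.17 under T3 (adjusted p = 0.748 and 0.610 by edgeR).

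Cacnb1, the intracellular beta-1 subunit that binds the pore-forming subunit, spread widely within groups before the trend was removed. Values were 121, 94.1, 109, 155 and 114 CPM in WT vehicle, 96.5, 91.9, 106 and 87.0 CPM in KO vehicle, 98.7, 153 and 171 CPM (lowest, median, highest) in WT T3 and 63.4, 124 and 159 CPM in KO T3, and all groups overlapped. After removal of the length and GC trend the SD fell from 31.5 to 4.50 CPM in WT T3 and from 34.3 to 7.41 CPM in KO T3. The trend-corrected means were 108 ± 9.96 CPM in WT vehicle (SD, n = 5), 143 ± 4.50 in WT T3 (n = 6), 93.9 ± 6.49 in KO vehicle (n = 4) and 115 ± 7.41 in KO T3 (n = 7). Fitted on all libraries with no offset, edgeR called Cacnb1 in no comparison, with T3 changes of 0.26 ± 0.20 in WT and 0.26 ± 0.21 in KO, and KO differences of -0.31 ± 0.22 under vehicle and -0.31 ± 0.18 under T3. With the offset edgeR called T3 changes of 0.40 ± 0.07 in WT (adjusted p = 0.00112) and 0.29 ± 0.07 in KO (adjusted p = 0.0229), and a KO difference under T3 of -0.31 ± 0.06 (adjusted p = 0.00266). Without the 5 libraries edgeR called the T3 change in KO, at 0.45 ± 0.12 (adjusted p = 0.0317), but neither that in WT, at 0.42 ± 0.12 (0.0732), nor the KO difference under T3, at -0.26 ± 0.12 (0.262).

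Cacng1, the gamma-1 subunit, a skeletal muscle subunit known to lower channel current, fell with T3 in KO. It was read at 79.5, 86.0, 122 and 61.5 CPM in KO vehicle and at 32.1, 50.9 and 72.4 CPM (lowest, median, highest) in KO T3, where only replicate 4 lay above the lowest vehicle library. The log2 fold change was -0.81 ± 0.22 (adjusted p = 0.0497 by edgeR). Leaving out 1 library ended the call in 12 cases, with adjusted p from 0.0542 to 0.179 by edgeR: WT vehicle replicates 3 and 5, WT T3 replicate 6, KO vehicle replicates 1, 2 and 3 and KO T3 replicates 1, 2, 3, 5, 6 and 7. Without KO vehicle replicate 3 the value was -0.63. With the offset it was -0.81 ± 0.14 (adjusted p = 0.00108 by edgeR), and without the 5 libraries -0.69 ± 0.19 (adjusted p = 0.0438 by edgeR). In WT the values were 69.3, 49.2, 78.9, 103 and 72.3 CPM under vehicle and 47.3, 56.3 and 99.5 CPM under T3, with a change of -0.26 ± 0.22 (adjusted p = 0.585 by edgeR). The difference between the T3 responses was -0.55 ± 0.31 (adjusted p = 1.00 by edgeR), so Cacng1 is not shown to respond differently in KO. Cacng1 and Cacna2d1 belong to 1 channel and had T3 values of opposite sign in both genotypes.

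Stac3, the adaptor needed for the channel's place in the tubule and for coupling, was not called by edgeR on all libraries. Its values were 233, 231, 222, 231 and 211 CPM in WT vehicle, 227, 268, 224 and 247 CPM in KO vehicle, 204, 216 and 267 CPM (lowest, median, highest) in WT T3 and 186, 210 and 224 CPM in KO T3. The groups overlapped in each comparison. T3 changes were -0.00 ± 0.09 in WT and -0.21 ± 0.09 in KO (adjusted p = 0.257 by edgeR), and KO differences 0.10 ± 0.10 under vehicle and -0.11 ± 0.08 under T3. The T3 change in KO was called by limma voom with quality weights (adjusted p = 0.00940) and by no other fit; it was -0.22 ± 0.09 with the offset (adjusted p = 0.197 by edgeR) and -0.23 ± 0.07 without the 5 libraries (adjusted p = 0.0728 by edgeR).

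Jph1 and Jph2, the junctophilins that bridge tubule and reticulum, were not called under any setting. Jph1 ranged from 177 to 273 CPM in WT vehicle, 101 to 246 in WT T3, 130 to 201 in KO vehicle and 146 to 232 in KO T3, and Jph2 from 283 to 520, 239 to 400, 291 to 376 and 219 to 468 CPM in the same order. Jph2 with T3 in KO had the largest difference of the pair among the T3 comparisons, at 0.21 ± 0.19 (adjusted p = 0.731 by edgeR), and Jph1 in KO under vehicle had the largest by genotype, at -0.27 ± 0.20 (adjusted p = 0.601 by edgeR). With the offset these were 0.31 ± 0.13 and -0.27 ± 0.18 (adjusted p = 0.192 and 0.486 by edgeR).

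Trdn, which encodes triadin, and Asph, whose locus gives junctin, junctate and the aspartyl hydroxylase, were not called under any setting either. Trdn ranged from 1079 to 1336 CPM in WT vehicle, 1051 to 1517 in WT T3, 1120 to 1326 in KO vehicle and 906 to 1541 in KO T3. Asph ranged from 128 to 158, 128 to 167, 126 to 144 and 121 to 167 CPM. Their log2 fold changes in edgeR's fit on all libraries with no offset lay between -0.12 (Trdn, KO under T3) and 0.15 (Asph, T3 in KO). The offset left these genes more spread in 1 library, since it took Trdn from 1517 to 2280 CPM and Asph from 145 to 259 CPM in WT T3 replicate 5. Counts per gene cannot separate junctin from the other products of Asph.

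The balance among members within a library was also compared, as log2 ratios of CPM per kb, with two-sided exact permutation tests and Benjamini-Hochberg adjustment over 16 tests of 4 ratios. Stac3 to Cacna1s stood at -0.53 ± 0.14 (SD, n = 5) in WT vehicle and 0.18 ± 0.31 (n = 4) in KO vehicle, with no overlap. The difference of 0.72 had an exact permutation p = 0.00794, the smallest that 126 arrangements allow, and an adjusted p = 0.0423. With T3 in KO the ratio was -0.42 ± 0.25 (n = 7), a difference of -0.60 (exact permutation p = 0.00606, adjusted p = 0.0423), and in WT T3 it was -0.46 ± 0.67 (n = 6). Cacna1s to Ryr1 went from -0.07 ± 0.36 (n = 4) in KO vehicle to 0.49 ± 0.25 (n = 7) in KO T3, a difference of 0.56 (exact permutation p = 0.00606, adjusted p = 0.0423). On average KO vehicle libraries thus had more Stac3 per Cacna1s than either WT vehicle or KO T3 libraries. KO vehicle and KO T3 overlapped in this ratio, with KO vehicle replicate 1 at -0.26 and KO T3 replicate 3 at 0.11. They also overlapped in Cacna1s to Ryr1, with KO vehicle replicate 1 at 0.14 and KO T3 replicate 1 at 0.11. These 3 calls share the KO vehicle libraries, and the ratios share Cacna1s, so they are not independent of one another. Nor are they independent of the result for Cacna1s itself, which edgeR did not call on all libraries. Cacna1s alone also separated WT vehicle from KO vehicle, where Stac3 overlapped. How often other gene pairs separate in this way was not examined. The other 13 differences were not called, among them all 8 of Jph2 to Jph1 and Asph to Trdn. Every one of the 3 calls ended when any library of its own groups was left out, which also leaves fewer arrangements. The adjusted exact permutation p then lay between 0.0635 and 0.152. For Stac3 to Cacna1s under vehicle the unadjusted exact permutation p was then 0.0179 or 0.0286. These are the smallest that the remaining arrangements allow, so this loss cannot show whether that call rests on a single library.

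**Figure D3:**
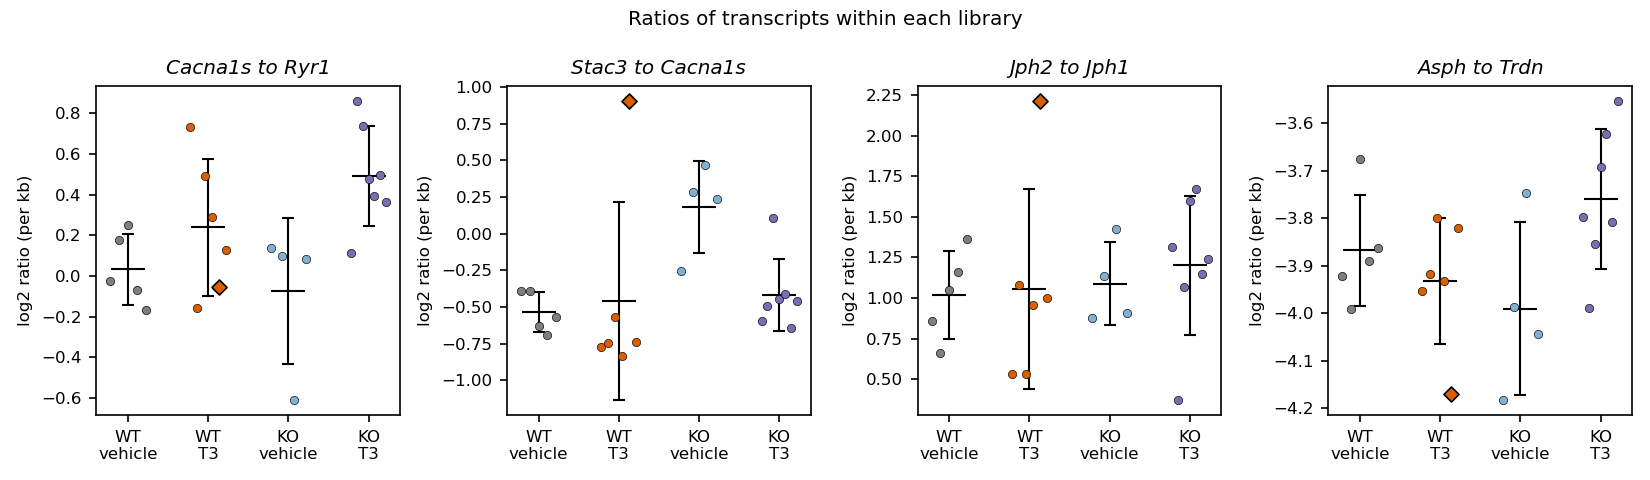
Log2 ratios of 4 pairs of the genes within each library, from CPM per kb. Points are libraries, lines the means and bars the SD; WT T3 replicate 5 is the diamond. Stac3 to Cacna1s lies higher in KO vehicle (mean 0.18) than in WT vehicle (-0.53) and KO T3 (-0.42), and WT T3 replicate 5 lies above the rest of its group.

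Genes around the complex were counted in lists. Of 16 junctional and lumenal partners 15 were tested, and edgeR's quasi-likelihood test called 1 higher and 2 lower in KO under vehicle and the same numbers under T3, and 0 higher and 1 lower with T3 in each genotype. Casq1, the fast-type calsequestrin, was among those lower: WT vehicle libraries held 736, 781, 851, 1140 and 624.7 CPM and KO vehicle libraries 639, 527, 425 and 501 CPM, which overlap by 1 library on each side. Its KO difference was -0.66 ± 0.15 under vehicle (adjusted p = 0.0131 by edgeR) and -0.45 ± 0.12 under T3 (adjusted p = 0.0249 by edgeR). With T3 its values were 0.18 in WT and 0.39 ± 0.14 in KO (adjusted p = 0.515 and 0.153 by edgeR). The vehicle call ended without KO vehicle replicate 3 (adjusted p = 0.0808 by edgeR) or replicate 4 (0.0620), and the T3 call without KO T3 replicate 2 (0.0509), without the 5 libraries (0.105), with total counts only (0.0948) or with no filter (0.0663). Casq2, the slow and cardiac calsequestrin, was called higher in KO under T3, at 0.80 ± 0.17 (adjusted p = 0.00379 by edgeR), and this was 0.53 without the 5 libraries (adjusted p = 0.151 by edgeR). Under vehicle it was also higher, at 0.75 ± 0.20 (adjusted p = 0.0347 by edgeR), a call that ended without any of WT vehicle replicates 1, 3, 4 and 5 or KO vehicle replicates 3 and 4 (adjusted p = 0.0637 to 0.141). Casq2 was the gene of the list called with T3, lower in both genotypes, at -0.76 ± 0.18 in WT and -0.71 ± 0.18 in KO (adjusted p = 0.0173 and 0.0351 by edgeR). The WT call ended without WT vehicle replicate 1 or 2 (adjusted p = 0.0511 and 0.0679) or the 5 libraries (0.0971), and the KO call with total counts only (0.0608) or without any of KO vehicle replicates 1 to 4 and KO T3 replicates 1, 4, 6 and 7 (0.0549 to 0.128). S100a1, a calcium sensor that binds RyR1, was called lower in KO under T3, at -0.92 ± 0.22 (adjusted p = 0.0110 by edgeR; 0.0830 without the 5 libraries), and under vehicle, at -0.96 ± 0.27 (adjusted p = 0.0483 by edgeR). The vehicle call was kept in 16 of 33 alternatives, and without KO vehicle replicate 4 its value was -0.82 (adjusted p = 0.204 by edgeR). Jsrp1, Fkbp1a and Tmem38a, which encode JP-45, the RyR1-binding FKBP12 and the TRIC-A channel, were not called in any comparison, and their log2 fold changes lay between -0.46 (Jsrp1, KO under T3) and 0.30 (Jsrp1, T3 in WT). The list's median was 0.13 and 0.18 with T3 (WT and KO) and -0.15 and -0.10 by genotype (vehicle and T3).

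Of 20 paralogs of the members, 17 were tested. Cacna2d2, which encodes another alpha-2/delta subunit, was called lower in KO under both treatments and in all 33 alternatives of each. It stood at 3.99 ± 0.797 CPM (SD, n = 5) in WT vehicle and 2.14 ± 0.0510 (n = 4) in KO vehicle, a difference of -0.89 ± 0.18 (adjusted p = 0.00519 by edgeR), and under T3 the difference was -0.90 ± 0.14 (adjusted p = 0.000214 by edgeR). Jph4, a junctophilin of neurons, was higher in KO under T3 at 1.31 ± 0.30 (adjusted p = 0.00888 by edgeR), from 0.326 ± 0.168 CPM (n = 6) in WT T3 to 0.837 ± 0.292 (n = 7) in KO T3, and was not called when those groups alone were fitted. Ryr3, which encodes another release channel, was higher in KO under T3 at 2.05 ± 0.52 (adjusted p = 0.0169 by edgeR), called in 31 of 33 alternatives; the call ended when those groups alone were fitted (0.0678) or without WT T3 replicate 4 (0.0521). In all, 0 paralogs were higher and 2 lower in KO under vehicle (Cacna2d2, Cacng7) and 3 higher (Jph4, Ryr3, Cacna2d3) and 1 lower (Cacna2d2) under T3. With T3, 1 was lower in WT (Ryr2, -1.53 ± 0.42, adjusted p = 0.0448 by edgeR) and 1 higher in KO (Cacna2d3, 0.97 ± 0.24, adjusted p = 0.0276 by edgeR). Of the alternatives, 13 of 32 called Ryr2 and 26 of 33 called Cacna2d3 with T3, while 22 of 33 called Cacna2d3 and 16 of 33 called Cacng7 by genotype. Of 14 genes of tubule and triad formation, 0 were called by genotype under vehicle and 1 (Dysf, lower in KO) under T3, and 0 with T3 in WT and 1 (Popdc3, higher) in KO. Dysf was at -0.30 ± 0.09 (adjusted p = 0.0447 by edgeR) and was called in 15 of 33 alternatives, with -0.14 for total counts only (adjusted p = 0.423 by edgeR). Leaving out any of WT vehicle replicates 2, 3 and 5, KO vehicle replicates 1 and 2, WT T3 replicates 1, 2, 3, 4 and 6 or KO T3 replicates 1, 2, 3, 5 and 6 ended the call. Popdc3 was at 0.66 ± 0.14 (adjusted p = 0.0117 by edgeR), and its call ended without KO vehicle replicate 2, 3 or 4 (0.0635, 0.0535 and 0.0690). Of the 5 calcium pumps and their inhibitors, 3 were called higher and 1 lower in KO under vehicle, and 3 and 0 under T3. Their genotype differences had both signs, from -0.83 to 2.34 under vehicle and -0.58 to 2.57 under T3, with medians of 0.62 and 1.00. Under vehicle Atp2a1 (lower), Pln and Atp2a2 (both higher) were called in 14, 15 and 22 of 33 alternatives. With T3, 0 were called higher and 2 lower in each genotype. Sln, the pump inhibitor sarcolipin, fell with T3 by 2.69 ± 0.33 in WT and by 2.46 ± 0.32 in KO on the log2 scale (adjusted p = 1.95e-05 and 5.71e-05 by edgeR), and was higher in KO by 2.34 ± 0.35 under vehicle and 2.57 ± 0.32 under T3 (adjusted p = 0.000436 and 1.44e-05 by edgeR).

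Fibre-type markers moved with the genotype. In sum, 10 fast fibre marker genes had medians of 36074 CPM in WT vehicle, 46381 in WT T3, 15674 in KO vehicle and 18025 in KO T3, and 8 slow fibre marker genes had 30868, 25181, 53417 and 50049 CPM. Between genotypes the ranges of the slow sums did not overlap under either treatment, nor did those of the fast sums. In KO, 6 of 10 fast markers were called lower under vehicle and 5 under T3, and 6 and 7 of 8 slow markers were called higher; none was called in the opposite direction. Among markers of other cell types, edgeR called 1 of 5 erythroid genes (Hbb-bt) higher in KO under vehicle. Under T3 it called 2 of 4 endothelial genes lower in KO (Kdr, Emcn) and, of 5 myogenic cell genes, 1 higher (Myog) and 1 lower (Myod1). With T3 in WT it called 2 of 5 Schwann cell genes lower (Sox10, Mbp). These marker genes were named after their values were seen. No other marker of these other cell types was called in any of the 4 comparisons. Summed Schwann cell markers stood at 369 CPM in WT vehicle replicate 3. They were at 80.1 to 109 CPM in the rest of that group and 54.3 to 75.6 CPM in WT T3. Summed erythroid markers stood at 982 CPM in KO vehicle replicate 3. They were at 33.4 to 96.2 CPM in the rest of that group and 43.9 to 70.0 CPM in WT vehicle. The part of these libraries in the calls was not tested. The fibre-type difference cannot be told apart here from a change within fibres, and its part in the differences of Ryr1, Cacna1s and Casq1 was not tested.

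**Figure D4:**
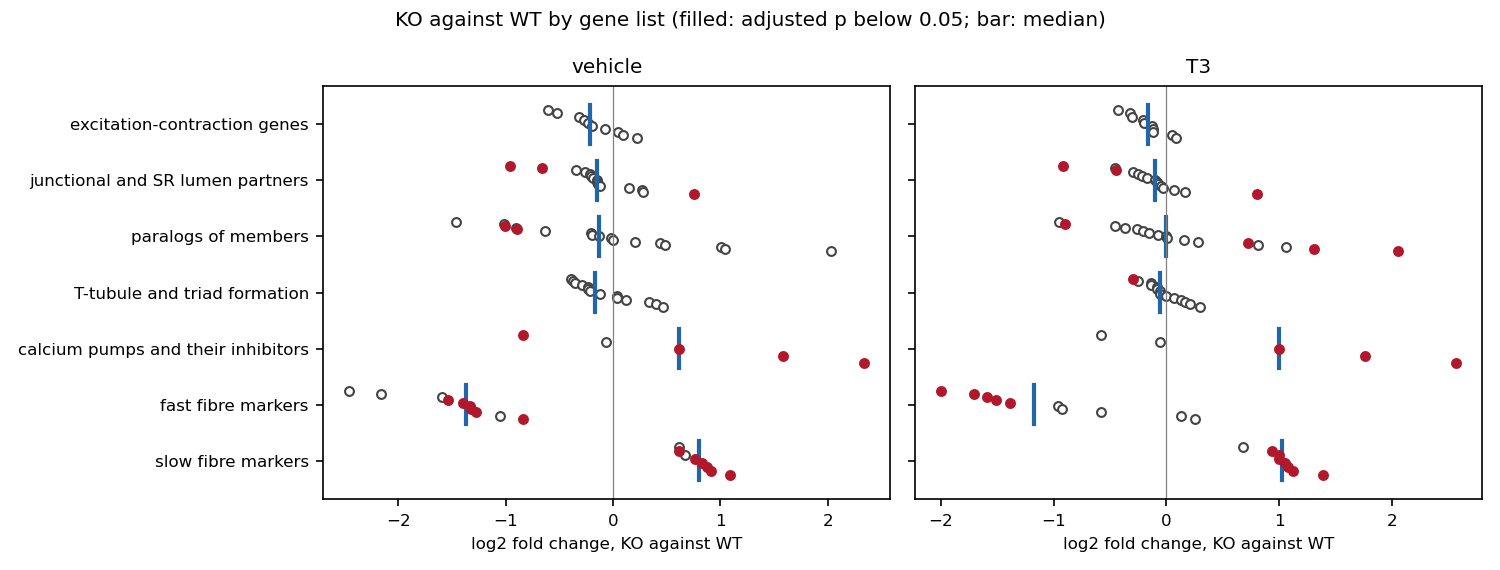
Log2 fold changes of KO against WT for the 10 genes and for 6 lists around them, under vehicle and under T3. Points are genes, filled at an adjusted p below 0.05, and bars mark list medians. The 10 genes have medians of -0.21 and -0.16, between the fast fibre markers (-1.37 and -1.17) and the slow fibre markers (0.80 and 1.03). The medians of every other list drawn also lie between these, among them the partners (-0.15 and -0.10) and tubule and triad genes (-0.17 and -0.05). So do those of all genes tested (-0.02 and -0.00).

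Between pairs of the 10 genes, Pearson's r of log2 CPM over the 22 libraries ranged from -0.65 to 0.81 with a median of 0.03 over 45 pairs. All points share depth scaling, and the length and GC trend was left in, which shifts the genes by different amounts. The highest were Cacna1s with Jph1 (0.81) and Cacnb1 with Jph2 (0.80), and the lowest was Jph2 with Trdn (-0.65). Without removal of the trend, the members did not follow a single common level across libraries. In KO T3 replicate 2 the trend placed Jph2 at -0.88, Cacnb1 at -0.67 and Trdn at 0.30 on the log2 scale. Its part in these r values was not tested. Among the genes most like Ryr1 were Nfic, Myh9, Smarca4 and Usp19 (r from 0.90 to 0.95), and those most like Cacna1s were Fyco1, Agbl1, Uhrf1bp1, Clcn1 and Stim1 (r from 0.87 to 0.92). Without the 5 libraries r for these genes ranged from 0.83 to 0.88 for Ryr1 and from 0.83 to 0.95 for Cacna1s.

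In mm10, as the deposited table gives them, Ryr1 (ENSMUSG00000030592) lies on chromosome 7 from 29003344 to 29125015, Cacna1s (ENSMUSG00000026407) on chromosome 1 from 136052750 to 136119529 and Cacna2d1 on chromosome 5 from 15934691 to 16374511. Cacnb1 and Cacng1 both lie on chromosome 11, from 98001508 to 98023034 and from 107703218 to 107716522. Jph1 lies on chromosome 1 from 16964560 to 17097889 and Jph2 on chromosome 2 from 163336242 to 163397993. Trdn and Stac3 lie on chromosome 10, from 33080554 to 33476709 and from 127501686 to 127508823, and Asph on chromosome 4 from 9448069 to 9669344. In GENCODE M21 exons of 5 of the 10 genes overlap a gene on the opposite strand: Asph shares 2302 bases with Clvs1, Cacna1s 1309 bases with Gm37759, Ryr1 864 bases with Gm26604, Cacnb1 80 bases with Gm11629 and Jph1 34 bases with Gm28376. The strand setting of the counting is not given in the sources used here, so reads of these partners may not have been told apart.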

How the data were processed

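Raw counts per gene and the gene lengths were used as the authors deposited them, in a single table of 22 libraries. Per the labels' protocols, RNA was purified on RNeasy columns, libraries were made with a TruSeq stranded kit and read as 51-bp pairs. STAR 2.7.3a, featureCounts 1.6.4, edgeR 3.26.8 and mm10 are named in the submitters' processing notes, and the annotation release is not given in the sources used here.

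Genes were filtered with filterByExpr (minimum count 10) of edgeR 4.0.16 in R 4.3.3, which left 15082 genes with at least 99.9% of the counts of each library. All 4 groups were fitted together with TMM scaling, no covariate and edgeR's quasi-likelihood test. P-values were adjusted after Benjamini and Hochberg over all genes tested, and genes below 0.05 were called. SE is the log2 fold change divided by the root of F.

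Ratios used gene length. Alternatives were other scalings and filters, DESeq2 1.42.0, limma 3.58.1 voom, the compared groups alone, 1 surrogate variable (sva 3.50.0), each library left out, the 5 T3 libraries left out, and an offset from splines (4 degrees of freedom each) of gene length and of GC content of the longest GENCODE M21 transcript, fitted per library on genes of at least 5 CPM. Steps were tested on simulated data.

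The 10 genes, the lists and the alternatives were chosen with earlier results of these data known. Named were all 10 members, at most 4 called genes per list and comparison by smallest adjusted p, Casq1, Jsrp1, Fkbp1a, Tmem38a and Thra, and the 5 genes most correlated with Ryr1 and with Cacna1s, of which 1 is not reported here. Replicate numbers follow accession order and pair nothing.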

Additional observations from a re-analysis of the deposited data

Results flagged for a closer look

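A single library, WT T3 replicate 5, lay far from the other 5 of its group for 3 of the 10 genes. Cacna1s stood there at 367.3 CPM, the lowest of the group, with a gap to the next library of 0.857 of the whole range, where 0.625 is the limit for 6 libraries (Dixon's test at 95%). Jph1 was also lowest there, at 101.3 CPM (gap 0.646), and Cacng1 was highest, at 99.45 CPM (gap 0.630). In all, 40 groups of libraries were examined, and chance alone flags about 1 in 20 groups.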

How the results depend on the processing

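Each of the 10 genes had at least 608 counts in a library. The part of depth, of the spread between libraries and of their length and GC trends in the calls was not tested. Group sizes of 4 to 7 limit the exact tests. Total counts only shifted the median of all genes by genotype to 0.13 under vehicle and 0.16 under T3. No paired analysis was possible because replicate numbers were given in accession order and tie no library to another. The cause of the changes below was not tested.

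Of the 10 genes, the number called with T3 in WT (0 on all libraries) was 1 with limma voom, 1 with a surrogate variable, 1 with the 5 T3 libraries left out and 2 with the length and GC offset, and 0 to 1 with single libraries left out. With T3 in KO (1) it was 0 with total counts only, 4 with limma voom, 4 with the 5 libraries left out, 3 with the offset and 0 to 2 with single libraries left out. By genotype under vehicle (0) it was 2 with limma voom, 2 with only the compared groups fitted, 2 with the 5 libraries left out and 0 to 1 with single libraries left out. By genotype under T3 (0) it was 1 with the 5 libraries left out, 2 with the offset and 0 to 2 with single libraries left out. Over all genes the calls numbered 499 (284 to 1043 over the alternatives), 410 (164 to 1472), 465 (212 to 1971) and 840 (539 to 1478), and 1 (0 to 3) for the difference of T3 responses.

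Among 136 values whose sign changed, 0 were called in either fit. With RLE scaling the sign changed for the difference of T3 responses Cacnb1 -0.0108. With upper-quartile scaling the sign changed for T3 in WT Cacna1s 0.0047, Stac3 0.0206, for the difference of T3 responses Cacnb1 -0.0261. With total counts only the sign changed for T3 in WT Cacna1s 0.0116, Stac3 0.04, for T3 in KO Jsrp1 0.0252, for the KO difference under vehicle Asph 0.0845, Jsrp1 0.0271, Tmem38a 0.0276, for the KO difference under T3 Jph1 0.0414, Trdn 0.0318, Stac3 0.0379, Fkbp1a 0.0498, Tmem38a 0.0774, for the difference of T3 responses Cacna2d1 0.0078, Cacnb1 -0.0008. With no filter the sign changed for the difference of T3 responses Cacnb1 -0.0045. With a filter of 1 CPM in 4 libraries the sign changed for T3 in WT Stac3 0.0026, for the difference of T3 responses Cacnb1 -0.0003. With DESeq2 the sign changed for the difference of T3 responses Cacnb1 -0.0111. With limma voom the sign changed for T3 in WT Cacna1s 0.1241, Jph1 0.0644, Jsrp1 -0.1183, for T3 in KO Ryr1 0.0118, Jsrp1 0.0027, for the KO difference under T3 Jsrp1 0.0925, for the difference of T3 responses Jph1 -0.0476, Jsrp1 0.121. With 1 surrogate variable the sign changed for the difference of T3 responses Cacna2d1 0.0025. With the 5 T3 libraries left out the sign changed for T3 in WT Ryr1 0.1173, Cacna1s 0.1703, Jph1 0.0493, Jph2 0.0316, Trdn -0.0817, Asph -0.1043, Fkbp1a -0.1369, for T3 in KO Ryr1 0.0189, Jsrp1 0.2537, Fkbp1a -0.0087, for the KO difference under T3 Fkbp1a 0.0058, for the difference of T3 responses Ryr1 -0.0984, Jph1 -0.0038. With the length and GC offset the sign changed for T3 in WT Ryr1 0.0142, Cacna1s 0.0862, Jph2 0.0933, Stac3 0.0035, for T3 in KO Jph1 -0.0005, for the KO difference under vehicle Trdn -0.0444, for the KO difference under T3 Asph -0.0321, for the difference of T3 responses Ryr1 -0.025, Cacna2d1 0.0345, Cacnb1 -0.114, Asph -0.0149, Fkbp1a -0.0054. Leaving out 1 library at a time changed a sign within these ranges: for T3 in WT Cacna1s -0.0514 to 0.1474, Jph1 -0.1595 to 0.0491, Jph2 -0.194 to 0.0346, Stac3 -0.0467 to 0.0261, Asph -0.0119 to 0.0682, Jsrp1 -0.1407 to 0.4672, for T3 in KO Jph1 -0.1019 to 0.101, Jsrp1 -0.1883 to 0.1237, for the KO difference under vehicle Jsrp1 -0.284 to 0.0477, for the KO difference under T3 Jph2 -0.0167 to 0.1794, Asph -0.0007 to 0.0938, for the difference of T3 responses Ryr1 -0.0752 to 0.2002, Cacna2d1 -0.1897 to 0.0555, Cacnb1 -0.1336 to 0.1095, Jph1 -0.0256 to 0.2106, Jsrp1 -0.516 to 0.0929, Fkbp1a -0.06 to 0.1376, Tmem38a -0.0092 to 0.082.

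Of the ratios, Cacna1s to Ryr1 with T3 in KO was 0.4413 with the 5 libraries left out (adjusted exact permutation p = 0.0952) and 0.3853 to 0.6343 with single libraries left out. Stac3 to Cacna1s with T3 in KO was -0.6922 with the 5 left out (adjusted exact permutation p = 0.0635) and -0.748 to -0.5051 with single libraries left out. By genotype under vehicle it was 0.7164 with the 5 left out (adjusted exact permutation p = 0.0635), with the same 9 libraries and the same unadjusted value but other p-values in the adjustment, and 0.62 to 0.8629 with single libraries left out. Under T3 it was 0.0408 on all libraries and -0.0467 to 0.3138 with single libraries left out, called without WT T3 replicate 5 (adjusted exact permutation p = 0.0455). The sign changed for Asph to Trdn with the offset (0.0238 by genotype under vehicle, 0.0878 with T3 in WT), and for ratios with T3 in WT with the 5 left out (Jph2 to Jph1 -0.0044, Stac3 to Cacna1s -0.2392) or the offset (Stac3 to Cacna1s -0.0341). With single libraries left out it changed for Cacna1s to Ryr1 (-0.1765 to 0.0725) and Jph2 to Jph1 (-0.0451 to 0.1545) by genotype under vehicle, and with T3 in WT for Jph2 to Jph1 (-0.1969 to 0.1397) and Stac3 to Cacna1s (-0.1989 to 0.1493).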
